A study of Mus musculus with 24 samples.

Results

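The mature miRNAs miR-126a-3p, miR-126a-5p, miR-221-3p and miR-222-3p, known from endothelium and the vessel wall, were taken by name from the deposited count table, where they are 4 of 1966 mature miRNAs listed. Small RNA from serum extracellular vesicles (EVs), the membrane-bound particles that cells shed into blood, had been sequenced in 1 library per mouse. All mice were wild type C57BL/6 males aged 14 to 16 weeks. Control mice (n = 6) received subcutaneous saline. The other groups underwent an open tibia fracture stabilized with a pin, under isoflurane with buprenorphine, and were sampled after 6 h (S6h, n = 6), 24 h (S24h, n = 6) or 72 h (S72h, n = 6). The S24h and S72h mice received buprenorphine daily. Blood of all mice was drawn under pentobarbital and left to clot, and EVs were precipitated from the serum. The paper states that no group received anesthesia alone, so anesthesia, analgesia and surgery cannot be told apart. The Control mice belonged to the batch of animals of the S6h group. The control mice of the S24h and S72h groups were not analysed here, so batch and time cannot be told apart where either group is compared with Control or S6h.

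The Control libraries held 63956 to 263211 counts (median 117578.5) and the S6h libraries 102568 to 471801 (median 177467.5). The S24h libraries held 66652 to 143856 (median 75030) and the S72h libraries 65017 to 245013 (median 94427.5). Levels below are CPM, the counts scaled to the column total of their library. Fold changes are on the log2 scale, with their standard error (SE), estimated by edgeR (quasi-likelihood) over the 4 groups together. A miRNA is called changed when its Benjamini-Hochberg adjusted p over the 252 miRNAs tested was under 0.05 and its fold change at least 1.5. All 4 members passed the filter on low counts.

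The hairpin of miR-126a lies in the gene Egfl7, which encodes a protein secreted by endothelial cells, and both of its arms are loaded into silencing complexes. In endothelium miR-126a-3p is known to repress Spred1 and Pik3r2, brakes on growth factor signalling, and miR-126a-5p to repress the Notch ligand Dlk1. miR-221 and miR-222 come from neighbouring hairpins on the X chromosome, share a seed, the stretch that pairs with target mRNAs, and are known to repress Kit and the cell cycle inhibitor Cdkn1b in the vessel wall. Platelets also carry these miRNAs.

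In GRCm38 the miR-126a hairpin spans chr2:26591357-26591429 on the plus strand, within Egfl7 (chr2:26580014-26593120, plus strand). It lies in an intron of 8 of the 9 annotated Egfl7 transcripts that span it, and in an exon of 1 transcript with a retained intron. It also lies in an intron of the 1 transcript of Gm20532 that spans it. The miR-126b hairpin, chr2:26591363-26591420, lies on the opposite strand at the same place, and both of its arms had 0 counts in all 24 libraries. The 3 counts that a count of 0 allows amounted to between 6.36 and 46.9 CPM depending on the library, a limit that covers counting error only. The strand setting of the counting is not given in the sources used here. How reads of the overlap were divided between miR-126a and miR-126b is therefore not known, and the 0 counts and the values of miR-126a below depend on it. The miR-221 hairpin (chrX:19146294-19146388) and the miR-222 hairpin (chrX:19146893-19146971) lie on the minus strand, 504 bases apart, and the annotation places neither in another gene. Sequences were matched for 3 of the 4 members in RefSeq (GRCm38.p6). They are shown because miR-221-3p and miR-222-3p differed in their course while sharing a seed, with the seed (bases 2 to 8) in capitals.
mmu-miR-221-3p: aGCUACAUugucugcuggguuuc
mmu-miR-222-3p: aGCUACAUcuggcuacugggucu
mmu-miR-126a-3p: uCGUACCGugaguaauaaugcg
The first 8 bases of miR-221-3p and miR-222-3p are identical, and aligned without gaps 11 of their 23 bases are the same. Among the rows of the table with a matched sequence, miR-1928 also has this seed. With 17 bases it is shorter than the reads kept for counting, so its 0 counts do not give its level.

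In Control EVs the order of the mean levels was miR-221-3p with 8604 ± 4127 CPM, miR-126a-3p with 3036 ± 1169 CPM, miR-222-3p with 2792 ± 923.5 CPM and miR-126a-5p with 508 ± 315 CPM (SD, n = 6). The means of miR-126a-3p and miR-222-3p differed by less than the SD of either, and the other neighbours in this order differed by more than the SD of each. By mean CPM these miRNAs ranked 32, 56, 58 and 98 in the table. Levels of different miRNAs also carry the ligation preference of the library kit, and their comparison is a description.

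miR-221-3p, which holds down Kit and Cdkn1b, was the member with the clearest difference between groups. Its level ranged from 2883 to 14650 CPM in Control (median 8389 CPM) and from 4222 to 11231 CPM in S6h (median 4779 CPM). It ranged from 12877 to 23489 CPM in S24h (median 16503 CPM) and from 8101 to 17211 CPM in S72h (median 14735 CPM). All S24h libraries lay above all S6h libraries, while the S72h libraries overlapped with S6h through the highest S6h library and the lowest S72h library. The latter, replicate 4, also held the highest share of miR-122 counts, which lowers the CPM of other miRNAs. With TMM scaling it had 13514 CPM and was not the lowest, and the groups overlapped through S72h replicate 3 (10831 CPM) and the highest S6h library (10854 CPM). Control replicates 1, 4 and 6 also held large miR-122 shares (16.0%, 15.7% and 12.7%). Of these, replicate 4 was the lowest Control library for miR-221-3p, with 2883 CPM and, with TMM scaling, 3208 CPM. The S24h and Control ranges overlapped, although 6 of 6 S24h libraries lay above the Control median. In bulk EV RNA, more vesicles of a source and more of the miRNA per vesicle cannot be told apart.

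miR-221-3p rose between S6h and S24h by 1.33 ± 0.31 on the log2 scale (SE, edgeR adjusted p = 0.00226), a fold of 2.51, and 6 of 6 S24h libraries exceeded the S6h median. It was the 1 called member of 4 in this comparison, in which 20.2% of all tested miRNAs were called. It was also the 1 called member of 4 between S6h and S72h, where 9.92% of all tested miRNAs were called, with a log2 fold change of 1.27 ± 0.31 (SE, edgeR adjusted p = 0.00747). Of the 252 miRNAs, 26 did not overlap between S24h and S6h, miR-221-3p among them.

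Against Control none of the 4 members was called by edgeR at 24 h, where 11.9% of all tested miRNAs were called. An unadjusted p under 0.05 was found for 1 member and for 74 of all 252 miRNAs. The member was miR-221-3p, with a log2 fold change of 0.83 ± 0.31 (SE, edgeR adjusted p = 0.0624), beside a median of -0.21 over all 252 miRNAs. DESeq2 called it, with a log2 fold change of 1.02 (adjusted p = 0.00824), and over the alternatives that kept all libraries the adjusted p ranged from 0.00824 to 0.121. With 1 library left out, edgeR called it without Control replicate 1, Control replicate 3, S24h replicate 6 or S72h replicate 4, with log2 fold changes of 0.99, 1.05, 0.95 and 0.99. At 72 h none of the 4 members was called by edgeR or DESeq2, and 3.57% of all tested miRNAs were called, while 1 member and 48 of all 252 had an unadjusted p under 0.05 in edgeR. The member was again miR-221-3p, with a log2 fold change of 0.77 ± 0.31 (SE, edgeR adjusted p = 0.167). Over the alternatives that kept all libraries its adjusted p in edgeR or DESeq2 ranged from 0.0480 to 0.238. The filter at a mean of at least 100 CPM gave a call in edgeR. At 6 h edgeR and DESeq2 called 0 members and 0 of all miRNAs (0%), while 0 members and 9 of all 252 had an unadjusted p under 0.05 in edgeR. The value of miR-221-3p was then -0.50 ± 0.30 (SE, edgeR adjusted p = 0.991), and 5 of 6 S6h libraries lay below the Control median. Between S24h and S72h, where 0.397% of all tested miRNAs were called, edgeR and DESeq2 called none of the 4 members, and 0 members and 29 of all 252 miRNAs had an unadjusted p under 0.05 in edgeR.

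**Figure D1:**
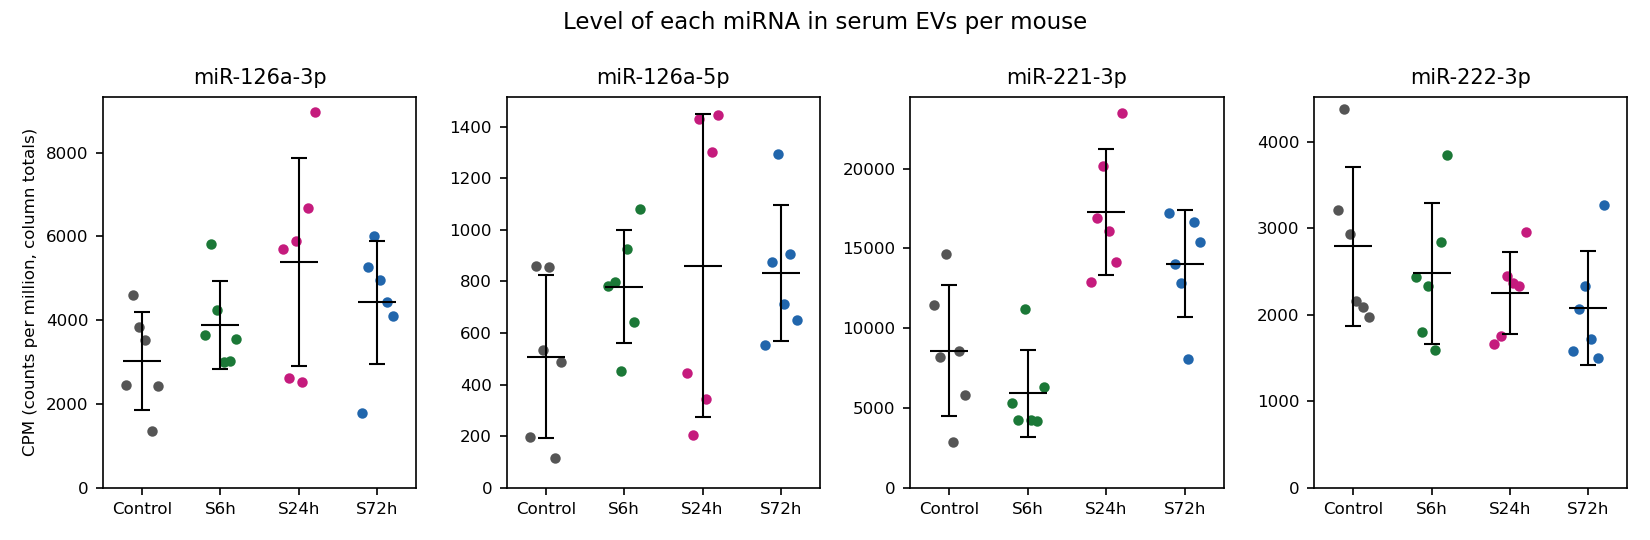
Level of each member in CPM of column totals (vertical axis, starting at 0 and scaled to each miRNA) in the Control, S6h, S24h and S72h groups (horizontal axis). Points are mice, and the black bars give the mean and SD of the 6 mice of a group. For miR-221-3p the S24h points, from 12877 to 23489 CPM, lie above every S6h point.

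miR-222-3p, the seed partner from the neighbouring hairpin, was not called in any of the 6 comparisons. It ranged from 1973 to 4378 CPM in Control (median 2547 CPM) and from 1600 to 3853 CPM in S6h (median 2390 CPM). In S24h the range was 1665 to 2954 CPM (median 2351 CPM) and in S72h 1507 to 3266 CPM (median 1898 CPM). The 4 groups overlapped, and the means, in descending order Control, S6h, S24h and S72h, differed from one to the next by less than the SD of any of them. With TMM scaling, which the fold changes use, the S72h mean (2199 CPM) lay above the S24h mean (2021 CPM). Against Control, S6h had a log2 fold change of -0.12 ± 0.27, S24h of -0.48 ± 0.28 and S72h of -0.35 ± 0.28 (SE), and none passed the test (edgeR adjusted p = 0.991, 0.243 and 0.523). At 24 h and at 72 h 5 of 6 libraries lay below the Control median.

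The ratio of miR-221-3p to miR-222-3p within a library is free of scaling, and it tests whether the pair differed in their change. Over the 24 libraries its log2 value had r = -0.33 with the log2 column total (rho = -0.36), as a description. The log2 CPM of miR-221-3p had r = -0.37 with this total (rho = -0.31), and that of miR-222-3p r = -0.014 (rho = 0.072). The ratio ranged from 1.33 to 4.99 in Control (median 3.27) and from 1.48 to 4.81 in S6h (median 2.26). In S24h it ranged from 6.06 to 9.62 (median 7.84) and in S72h from 4.70 to 11.1 (median 6.14). Every S24h library had a higher ratio than every Control and every S6h library. In S72h 4 of 6 libraries lay above all Control libraries, and the other 2, replicates 4 and 6, lay just under the highest Control library. At their closest, Control replicate 3 and S24h replicate 5, the share of miR-222-3p among the counts of both miRNAs was 16.7% (95% Wilson interval 14.98% to 18.5%) and 14.2% (12.3% to 16.2%), and these intervals overlapped. They cover counting error only.

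The mean log2 ratio was 1.51 ± 0.72 in Control, 1.22 ± 0.60 in S6h, 2.94 ± 0.23 in S24h and 2.77 ± 0.57 in S72h (SD, n = 6). S24h exceeded Control by 1.42 (95% interval 0.76 to 2.12), a fold of 2.68, with p = 0.00216 by the exact two-sided permutation test, the smallest p that the test can give, and 0.0130 after adjustment over 12 tests. S24h exceeded S6h by 1.72 (95% interval 1.14 to 2.26), with the same p of 0.00216 and adjusted p of 0.0130 in the exact test. S72h exceeded Control by 1.25 (95% interval 0.41 to 2.09) and S6h by 1.55 (0.79 to 2.27), each with an adjusted p of 0.0195 in the exact permutation test. In these 4 comparisons 6 of 6 libraries of the later group lay above the median of the other. The ratio did not pass the test between S6h and Control, with a difference of -0.29 (95% interval -1.15 to 0.57, adjusted p = 0.597, exact test), or between S72h and S24h, with -0.17 (95% interval -0.73 to 0.41, adjusted p = 0.613, exact test). These are the 2 comparisons within a batch of animals, and the 4 that passed are those in which batch and time cannot be told apart.

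**Figure D2:**
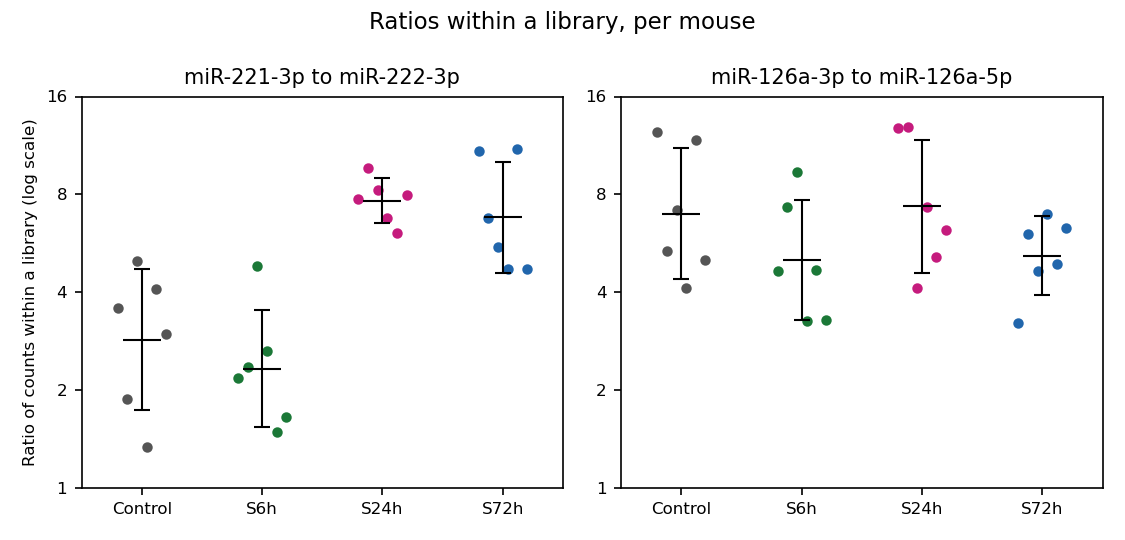
Ratio of the counts of miR-221-3p to miR-222-3p (left) and of miR-126a-3p to miR-126a-5p (right) within each library (vertical axes, log scale) in the 4 groups (horizontal axis). Points are mice, and the black bars give the geometric mean with 1 SD of the log2 ratio. On the left the S24h points lie between 6.06 and 9.62, above every Control and S6h point.

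As a share of the counts of both miRNAs, miR-222-3p made up 26.8% ± 10.01 in Control, 30.7% ± 8.19 in S6h, 11.6% ± 1.65 in S24h and 13.3% ± 4.22 in S72h (SD, n = 6). The summed level of the pair was 11396 ± 4562 CPM in Control, 8411 ± 2978 CPM in S6h, 19535 ± 4322 CPM in S24h and 16128 ± 3419 CPM in S72h (SD, n = 6). The lowest S24h sum, 14542 CPM, lay above the highest S6h sum, 13567 CPM, and under the highest Control sum, 17584 CPM. The sum was not tested.

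The opposite arms of both hairpins had few counts. miR-221-5p, with 26 bases, is longer than the reads kept for counting, so its full-length reads could not enter the table and its counts do not give its level. It had 0 counts in 1 Control, 1 S6h, 2 S24h and 2 S72h libraries and a mean of 68.5 ± 53.6 CPM in Control, 39.2 ± 49.1 CPM in S6h, 44.1 ± 44.7 CPM in S24h and 29.9 ± 34.6 CPM in S72h (SD, n = 6). miR-222-5p had 0 counts in 2 Control, 4 S6h, 4 S24h and 3 S72h libraries, and its highest count in any library was 14. It did not pass the filter on low counts.

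miR-126a-3p, the arm that represses Spred1 and Pik3r2, ranged from 1352 to 4597 CPM in Control (median 2995 CPM) and from 3016 to 5827 CPM in S6h (median 3595 CPM). It ranged from 2521 to 8960 CPM in S24h (median 5803 CPM) and from 1780 to 6013 CPM in S72h (median 4696 CPM). The groups overlapped, with 2 low libraries in S24h and 1 low library in S72h, replicate 1, that lay apart from the other 5. All 6 S6h libraries, 4 of 6 S24h libraries and 5 of 6 S72h libraries lay above the Control median. With Control as the base, the log2 fold change of S6h was 0.40 ± 0.33, of S24h 0.64 ± 0.33 and of S72h 0.62 ± 0.33 (SE), and none passed the test (edgeR adjusted p = 0.991, 0.185 and 0.295).

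miR-126a-5p, the arm that represses Dlk1, was the lowest member. It ranged from 115 to 860 CPM in Control (median 510 CPM), from 452 to 1081 CPM in S6h (median 790 CPM), from 203 to 1446 CPM in S24h (median 874 CPM) and from 555 to 1295 CPM in S72h (median 793 CPM). The S24h libraries fell into 3 high and 3 low ones on either side of the Control median, and all groups overlapped. In the lowest libraries 15 reads stood behind the value. Set against Control, the S6h group differed by 0.70 ± 0.46, S24h by 0.58 ± 0.46 and S72h by 0.77 ± 0.46 on the log2 scale (SE), and none passed the test (edgeR adjusted p = 0.991, 0.445 and 0.397).

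The ratio of the miR-126a arms did not pass the test in any comparison. The ratio of miR-126a-3p to miR-126a-5p ranged from 4.11 to 12.5 in Control (median 6.26), from 3.26 to 9.40 in S6h (median 4.68), from 4.13 to 12.9 in S24h (median 6.75) and from 3.21 to 6.96 in S72h (median 5.46). The groups overlapped in all 6 comparisons. The difference of the mean log2 ratio lay between -0.51 (S72h against S24h) and 0.55 (S24h against S6h), and the smallest adjusted p of the exact permutation tests was 0.338. For S24h against Control the difference was 0.07 with a 95% interval from -0.79 to 0.95, which does not show that the ratios were alike.

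Likeness of profile was measured as Pearson r of log2 CPM (TMM scaling, pseudocount 4) over the 24 libraries, which share groups, batches and depth, and is given as a description. miR-126a-3p and miR-126a-5p were each other's closest among 251 other miRNAs (r = 0.77, rho = 0.70, and r = 0.75 with the group means removed). miR-221-3p and miR-222-3p had r = -0.12 (rho = -0.04, and r = 0.30 with the group means removed), and miR-222-3p stood at place 151 among the miRNAs most like miR-221-3p. The miRNAs closest to miR-221-3p were miR-484 (r = 0.93, rho = 0.89), miR-140-3p (r = 0.92, rho = 0.89) and miR-423-3p (r = 0.91, rho = 0.84). With the group means removed their r was 0.83, 0.86 and 0.78. miR-484, for instance, had 1861 ± 660 CPM in S6h and 6433 ± 1333 CPM in S24h (SD, n = 6). miR-143-3p, made in smooth muscle, was least like miR-221-3p (r = -0.84, rho = -0.76, and r = -0.55 with the group means removed).

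After its own 5p arm, miR-126a-3p was most like miR-26a-5p (r = 0.66, rho = 0.63) and miR-26b-5p (r = 0.62, rho = 0.63). miR-126a-5p was next most like miR-181b-5p (r = 0.62, rho = 0.35) and miR-181c-5p (r = 0.58, rho = 0.55). The closest to miR-222-3p were miR-7a-5p (r = 0.61, rho = 0.61), miR-25-3p (r = 0.55, rho = 0.59) and miR-132-3p (r = 0.55, rho = 0.52), all weaker than the likeness of miR-221-3p to its neighbours.

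Among 32 other miRNAs known from vessel growth, endothelium or the vessel wall, 31 were tested. Against Control 1 was higher and 5 were lower at 24 h, with a median log2 fold change of -0.43 beside -0.21 over all 252, of which 30 were called (10 higher and 20 lower). At 72 h 0 of the list were higher and 3 lower (1 lower with column totals), with a median of -0.22 beside -0.06, and 9 of all 252 were called. Between S6h and S24h 2 of the list were higher and 6 lower at 24 h, beside 16 higher and 35 lower of all 252. With RLE scaling the list had 3 higher and 6 lower, beside 22 higher and 21 lower of all 252. With column totals the list had 2 higher and 4 lower, beside 19 higher and 18 lower. miR-143-3p fell from 29994 ± 27540 CPM in Control to 3596 ± 557 CPM in S24h (SD, n = 6), a log2 fold change of -3.25 ± 0.51 (SE, edgeR adjusted p = 9.30e-05). miR-145a-5p, from the hairpin next to it, rose from 3570 ± 1628 to 9040 ± 3743 CPM (SD, n = 6), by 1.19 ± 0.31 on the log2 scale (SE, edgeR adjusted p = 0.0111). miR-27b-3p fell from 8273 ± 2432 to 2499 ± 654 CPM (SD, n = 6), with a log2 fold change of -1.88 ± 0.34 (SE, edgeR adjusted p = 0.000320). miR-19a-3p, miR-145a-3p and miR-16-5p were also called lower at 24 h, and miR-10b-5p, miR-143-3p and miR-16-5p at 72 h. Between S6h and S24h miR-145a-5p and miR-328-3p were higher at 24 h, and miR-24-3p, miR-27a-3p, miR-27b-3p, miR-143-3p, miR-145a-3p and miR-16-5p lower. The vascular list shares miR-16-5p and miR-92a-3p with the erythroid list below, and miR-24-3p and miR-21a-5p with the platelet list. It shares miR-146a-5p and miR-155-5p with the leukocyte list. Calls of shared miRNAs appear under each list and are not separate results. Between S6h and S72h 1 of the list was higher and 5 lower at 72 h, beside 11 higher and 14 lower of all 252. This became 2 higher and 6 lower with DESeq2, and 0 higher and 4 lower with column totals. No member of the list was called between S6h and Control or between S72h and S24h.

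Blood cell and liver miRNAs are given beside these results because EV RNA of serum mixes sources. The erythroid list has 9 miRNAs, all detected and 8 tested, and is led by miR-486b-5p. Its share of all counts ranged from 13.7% to 23.7% in Control (median 17.7%), from 9.90% to 17.4% in S6h (median 15.4%), from 5.42% to 15.5% in S24h (median 8.96%) and from 6.18% to 20.2% in S72h (median 8.99%). At 24 h against Control 5 of the 8 tested were lower and 0 higher (miR-451a, miR-486a-5p, miR-486b-5p, miR-16-5p and miR-25-3p), beside 20 lower and 10 higher of all 252, with a median log2 fold change of -1.24, and at 72 h 1 was lower, miR-16-5p, while DESeq2 called 4 lower and column totals 0. Between S6h and S24h 3 of the 8 were lower at 24 h (miR-451a, miR-16-5p and miR-25-3p) and 0 higher, beside 35 lower and 16 higher of all 252. The median log2 fold change of the 8 was -0.82 beside -0.23 over all 252, and 1 was lower with RLE scaling or column totals. Between S6h and S72h miR-16-5p was lower, beside 14 lower and 11 higher of all 252. Reads of miR-486a-5p and miR-486b-5p, whose sequences are nearly the same, may have been split in counting. Over the 24 libraries the log2 share of the erythroid list had r = -0.51 with the log2 ratio of miR-221-3p to miR-222-3p (rho = -0.55). With miR-126a-3p its r was -0.63 (rho = -0.59) and with miR-126a-5p -0.58 (rho = -0.55). With miR-221-3p it was -0.38 (rho = -0.37) and with miR-222-3p 0.38 (rho = 0.46). These values are a description, with group means not removed. The share and the levels are scaled to the same column total. The part of the erythroid miRNAs in these results was not tested.

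The platelet list names miR-126a-3p, miR-221-3p and miR-222-3p among its 8 miRNAs. The other 5 are led by miR-21a-5p, and all were detected. They held from 10.04% to 16.9% of counts in Control (median 13.4%), from 9.88% to 15.5% in S6h (median 13.0%), from 12.3% to 17.7% in S24h (median 16.3%) and from 10.3% to 21.1% in S72h (median 16.5%). Of these 5, miR-199a-3p was called lower at 24 h against Control, beside 20 lower and 10 higher of all 252. Between S6h and S24h 1 was higher (miR-191-5p) and 3 were lower (miR-223-3p, miR-24-3p and miR-199a-3p), beside 51 of all 252 called, 35 of them lower. The 3 lower calls became 2 with RLE scaling and 1 with column totals. Against Control DESeq2 called 1 of the 5 higher and 1 lower at 24 h (23 higher and 27 lower of all 252). At 72 h it called 1 higher and 0 lower (13 higher and 8 lower of all 252). Between S6h and S72h miR-191-5p was higher and miR-24-3p lower, beside 11 higher and 14 lower of all 252 (9.92% called). The lower call was lost with RLE scaling, column totals and TMM without the erythroid list. The median log2 fold change of the 5 was -0.75 at 24 h against Control, beside -0.21 over all 252, and -1.01 between S6h and S24h, beside -0.23. Their summed share, which miR-21a-5p leads, went the other way. Over the 24 libraries the log2 of this share had r = 0.52 with miR-221-3p (rho = 0.46), as a description. With miR-126a-3p its r was 0.42 (rho = 0.41), with miR-126a-5p 0.33 (rho = 0.29) and with miR-222-3p 0.20 (rho = 0.18). Group means were not removed here either. The part of the platelet list in the rise of miR-221-3p was not tested.

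The leukocyte list of 7 miRNAs, all tested, is led by miR-223-3p in Control and held medians of 1.48% of counts in Control, 1.35% in S6h, 1.38% in S24h and 1.31% in S72h, within overlapping ranges from 0.503% to 2.11%. None was called against Control. Between S6h and S24h miR-150-5p was higher and miR-223-3p, also on the platelet list, lower, beside 16 higher and 35 lower of all 252 (20.2% called). The lower call was lost with RLE scaling and with column totals, and DESeq2 called 2 higher. Between S6h and S72h edgeR called 0 of the 7, while DESeq2 called 1 lower at 72 h, beside 21 higher and 14 lower of all 252. The liver list holds both arms of miR-122, of which miR-122-5p was tested. edgeR called it in no comparison, while DESeq2 called it higher in S72h than in S6h, where its log2 fold change was 2.75 in edgeR and 2.73 in DESeq2. The share of the list in all counts varied from 0.371% to 16.0% in Control, from 0.221% to 2.83% in S6h, from 0.789% to 5.22% in S24h and from 0.477% to 29.97% in S72h. The highest value came from S72h replicate 4, and the other 5 S72h libraries held at most 1.32%. The median was 6.85% in Control, 1.32% in S6h, 1.85% in S24h and 0.806% in S72h. The higher mean of miR-122-5p in S72h than in S6h therefore rested on 1 library. Of the endothelial list of 4, both arms of miR-126a were tested and both arms of miR-126b were at 0.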

How the data were processed

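Serum EV small RNA was measured in 24 libraries, 1 per mouse, 6 per group. According to the methods of the study, the authors removed adapters (cutadapt), mapped the reads with Bowtie on GRCm38, kept those of 20 to 24 bases (SAMtools) and assigned them by featureCounts to the miRBase annotation. What they deposited are raw read counts. Settings for strand, multi-mapping reads and PCR copies are not given in the sources used here.

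CPM were computed from column totals. A miRNA was tested with at least 10 CPM in at least 12 libraries, which kept 252 of 1966. All 4 groups were fitted in 1 quasi-likelihood model in edgeR 4.0.16 (R 4.3.3) with TMM scaling. A call required a Benjamini-Hochberg adjusted p under 0.05 over all 252 miRNAs and a fold change of at least 1.5. Ratios within a library were tested by exact two-sided permutation of group labels (924 assignments), adjusted over 12 tests. Alternatives were DESeq2 1.42.0, other scalings, filters and groups, a block for the replicate number, a pseudocount and leaving out each library. The scripts were tested on simulated data. The members and lists were chosen with earlier results of these data known. Other miRNAs named are the opposite arms, rows sharing a seed, the 3 closest in profile to each member, and called members of the lists.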

Additional observations from a re-analysis of the deposited data

Results flagged for a closer look

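In S72h, the level of miR-126a-3p in replicate 1 was 1780 CPM and lay apart from the other 5 libraries, with a gap to the nearest of them of 0.686 of the whole range of log2 CPM in the group. With TMM scaling replicate 1 had 2205 CPM, the next lowest library 3864 CPM and the highest 8277 CPM, so the gap took up less of the range. Over 4 members and 2 ratios in 4 groups, 24 groups of 6 libraries were looked at, of which chance alone would set apart about 1.2, and 1 was. Without this library the log2 fold change of miR-126a-3p between S72h and Control was 0.77 in place of 0.62 and did not pass the test (edgeR adjusted p = 0.174). The cause was not tested.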

How the results depend on the processing

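The rise of miR-221-3p from S6h to S24h and S72h kept its direction and its call under all 8 alternatives with all libraries and without each of the 24 libraries, with log2 fold changes from 1.24 to 1.57 and from 1.13 to 1.51 when 1 library was left out. The ratio of miR-221-3p to miR-222-3p kept all 4 differences that passed, with a pseudocount of 1 and without each library. Against Control at 24 h, miR-221-3p passed with DESeq2 (1.02), RLE scaling (1.02), column totals only (1.01), a mean of at least 100 CPM (1.01) and the replicate block (0.93), and at 72 h with a mean of at least 100 CPM (0.86). Without 1 library its 24 h value ranged from 0.66 to 1.05, and it passed without Control replicate 1, Control replicate 3, S24h replicate 6 or S72h replicate 4 (0.99, 1.05, 0.95 and 0.99). Same-numbered libraries deviated together only weakly (at most 2 of 6 pairs had r over 0.1), so the numbers were not read as pairs. For 3 of 6 S6h libraries the same-numbered Control library was the most alike of the Control libraries, with r of at most 0.14. With the replicate block as sign flips of 6 differences, the smallest exact p is 0.0312, and the 4 ratio differences of 1.42, 1.25, 1.72 and 1.55 each reached it, with an adjusted p of 0.0938. The block gave 1 call between S72h and Control.

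Signs changed only for differences that were not called. Their values in the main analysis were at most 0.22 in size, and those of the opposite sign at most 0.17. For miR-126a-5p between S24h and S6h the values were 0.17 with DESeq2, 0.17 with RLE, 0.15 with column totals, 0.034 with no filter and 0.067 with a mean of at least 100 CPM. For miR-222-3p between S72h and S24h they were -0.056 with DESeq2, -0.056 with RLE and -0.12 with column totals, and for miR-126a-5p -0.060 with column totals. Leaving out 1 library gave ranges from -0.31 to 0.037 for miR-222-3p at 6 h against Control, and from -0.32 to 0.084 for miR-126a-5p between S24h and S6h. Between S72h and S24h they were -0.29 to 0.13 for miR-126a-3p, -0.019 to 0.38 for miR-126a-5p, -0.20 to 0.012 for miR-221-3p and -0.070 to 0.22 for miR-222-3p. Between S72h and S6h they were -0.11 to 0.37 for miR-126a-3p and -0.11 to 0.19 for miR-126a-5p. The ratio of the miR-126a arms ranged from -0.087 to 0.24 for S24h against Control and from -0.081 to 0.22 for S72h against S6h.

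Counts of calls moved more. Against Control at 24 h edgeR called 30 miRNAs (10 higher), DESeq2 50 (23 higher), RLE 37 (18 higher) and column totals 37 (17 higher), and with 1 library left out the count ran from 20 (Control replicate 5) to 42 (S24h replicate 2). Against Control at 72 h it called 9 (5 higher), DESeq2 21, column totals 2 (0 higher), TMM without the erythroid list 5 (1 higher), a mean of at least 100 CPM 18 and the 2 groups alone 0, and with 1 library left out from 1 (Control replicate 2) to 14 (S72h replicate 1). Between S24h and S6h the count was 51 (16 higher), with DESeq2 57 (27 higher), RLE 43 (22 higher) and column totals 37 (19 higher), and from 32 (without S6h replicate 4) to 53 without 1 library. Between S72h and S24h it was 1, with DESeq2 4, with no filter 10, with the 2 groups alone 0, and with 1 library left out from 1 to 5 (S24h replicate 2). Between S72h and S6h it was 25 (11 higher), with DESeq2 35 (21 higher), and with 1 library left out from 13 (S72h replicate 5) to 35 (S6h replicate 3). Between S6h and Control no filter gave 2. Of the erythroid list, 5 or 6 of the 8 tested were lower at 24 h against Control under DESeq2, RLE, column totals and TMM without that list. At 72 h the 1 lower of them became 4 with DESeq2 and 0 with column totals. Of the vascular list 1 to 3 of 31 were higher and 4 or 5 lower at 24 h. RLE moved the median log2 fold change of all miRNAs by 0.15 at 24 h against Control and by 0.29 between S24h and S6h. The cause of these shifts was not tested. Counts were low for miR-126a-5p, with 15 reads in the lowest libraries, and for the 5p arms of miR-221 and miR-222.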
